A study of Mus musculus with 6 samples.

Results

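The interferon response genes were 41 mouse genes taken by name from a list of genes that interferons induce, with the factors that sense viral RNA and carry the signal. Probes were assigned by the gene name printed in the scanner files, or by an older symbol of the same RefSeq transcript. At least 1 probe was found for 40 of the 41 (64 probes in all), and Xaf1 had none. A gene counted as measured where 2 or more arrays had a probe well above background, which held for 38 of the 41, out of 20220 genes measured in all. Oas1g and Samd9l were well above background on no array. Of the 38, 35 were well above background on all 6 arrays, Ifit2 on 5, Mx1 on 4 and Ifi44 on 3, all of day 12. Ifi44 could be measured only through the day at which it was bright, so its own day difference is given as a bound. Its tests are inside the counts over the 38, so the main counts are given over the 35 too. Dhx58, Irf9 and Gbp3 carried only older names on the array (D11Lgp2e, Isgf3g and Gbp4). Ifi27 was read from the probe to its RefSeq transcript, named D12Ertd647e there. A second, dimmer probe with the bare name Ifi27 is uncertain, because the array also gave that name to its neighbour Ifi27l2a.

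The study asked what loss of Dazl does to germ cells made in culture. Dazl encodes an RNA-binding protein of the germ line. Male mouse Oct4-GFP ES cells (embryonic stem cells; strain C57BL/6 129SV mixed) carried a vector with a tdTomato marker and either a control short hairpin RNA or 1 of 2 hairpins against Dazl. They were differentiated for 9 or 12 days and sorted for GFP and tdTomato, so all 6 samples shared the reporter, the marker, the sort and a hairpin vector. There were 4 groups: control cells at day 9 (1 array), Dazl knockdown cells at day 9 (hairpin 1 and hairpin 2, 1 array each), and the same at day 12 (1 control array and 2 knockdown arrays). The labels call the sorted cells primordial germ cells generated in vitro, and name no separate cultures, so the p-values speak for the spread among these 6 samples alone.

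Interferons are secreted proteins that cells release on sensing viral nucleic acid. They bind receptors whose JAK kinases phosphorylate STAT proteins, which join IRF9 in a complex that binds the interferon-stimulated response element (ISRE) in the promoters of induced genes. The products block viral translation, degrade viral RNA, trap virions and load peptides for T cells. IRF7, itself induced, feeds back on the interferon genes. Pluripotent stem cells are known to respond weakly to interferon and to gain the response as they differentiate.

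Each array was read on a scale where the 75th percentile of its probe signals was set to 0 in log2; a level is the signal as a percent of that percentile. The percentile lay between 629 and 746 scanner units, 70.3% to 73.3% of probes were well above background, no probe was saturated, and each pair of arrays correlated at r of 0.98 to 0.99 across genes. Dazl, measured by its brighter probe, stood at 3.54% to 8.27% of the control of the same day on the 4 knockdown arrays. Of 14 germ and pluripotent cell markers, 13 were measured; Ddx4, a germ cell RNA helicase, was at levels of 287 to 609 and Pou5f1, the pluripotency factor behind the Oct4 reporter, at 1146 to 2131. All arrays of a day came from a single slide and scan, and a difference between days cannot be told apart from one between slides; control, hairpin 1 and hairpin 2 also took the same 3 positions on both slides. RNA was taken from whole sorted populations, so more expressing cells and more RNA per cell cannot be told apart either.

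The promoters of the members were described first. The members were listed as genes that interferons induce, so a raised share of interferon motifs can follow from how the list was made. It is not a result of these arrays. RefSeq windows (GRCm38.p6) of 250 bases before to 50 bases after a start site were found for 32 of the 41; Dhx58, Usp18, Oas2, Mx1, Mx2, Parp9, Parp14, Ifi27 and Rtp4 had none. The ISRE core, taken as GAAA, 2 bases of any kind and GAAA again, and searched on both strands, was in a window of 15 of the 32 (46.9%), against 3.99% of 27025 genes of the table. The gamma-activated site TTCNNNGAA, a second motif of interferon signalling, was found in 9 of the 32 (28.1%), against 9.55% of all genes. Of the 23 ISRE core matches, some of which overlap, 19 began 10 to 200 bases before the start site. That range makes up most of the window, and the matches of other genes were not counted by position. The matches are descriptions of letters, not of binding, and the 2 motifs were read without regard to overlap. The windows shown are those of the 5 members with a window and the largest day difference on all 6 arrays, with overlapping ISRE core matches in capitals. Those of Oas1a and Gbp3 each held a pair of overlapping matches 6 bases apart, beginning 20 and 45 bases before the start site. The Oasl2, Oasl1 and Irf7 windows held none. Gbp3 had a second window, with no match.
Oas1a, chr5:120907476-120907775, minus strand: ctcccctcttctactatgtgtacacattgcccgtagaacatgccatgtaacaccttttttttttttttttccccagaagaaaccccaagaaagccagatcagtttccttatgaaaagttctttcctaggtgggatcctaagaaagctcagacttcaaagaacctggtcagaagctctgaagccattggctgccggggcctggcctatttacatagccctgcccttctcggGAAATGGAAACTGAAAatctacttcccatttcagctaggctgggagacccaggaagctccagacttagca
Gbp3, chr3:142559794-142560093, plus strand: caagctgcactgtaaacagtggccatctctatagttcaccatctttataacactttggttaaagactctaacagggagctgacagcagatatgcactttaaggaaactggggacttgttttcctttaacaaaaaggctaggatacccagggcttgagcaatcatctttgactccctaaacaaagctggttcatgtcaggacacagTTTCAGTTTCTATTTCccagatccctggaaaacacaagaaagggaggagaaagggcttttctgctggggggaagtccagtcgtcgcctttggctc
Irf7, chr7:141266375-141266674, minus strand: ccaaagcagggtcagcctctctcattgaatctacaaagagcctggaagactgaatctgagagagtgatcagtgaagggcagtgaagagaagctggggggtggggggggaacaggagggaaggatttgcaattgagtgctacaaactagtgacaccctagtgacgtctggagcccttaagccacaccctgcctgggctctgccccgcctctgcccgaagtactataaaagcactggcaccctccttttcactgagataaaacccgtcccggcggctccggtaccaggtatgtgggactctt
Oasl1, chr5:114922990-114923289, plus strand: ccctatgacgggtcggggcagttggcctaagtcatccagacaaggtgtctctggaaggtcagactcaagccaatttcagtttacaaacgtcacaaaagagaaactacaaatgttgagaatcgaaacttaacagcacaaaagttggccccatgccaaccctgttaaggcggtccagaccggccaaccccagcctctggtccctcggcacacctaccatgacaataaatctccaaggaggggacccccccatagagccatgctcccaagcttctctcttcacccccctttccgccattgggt
Oasl2, chr5:114896684-114896983, plus strand: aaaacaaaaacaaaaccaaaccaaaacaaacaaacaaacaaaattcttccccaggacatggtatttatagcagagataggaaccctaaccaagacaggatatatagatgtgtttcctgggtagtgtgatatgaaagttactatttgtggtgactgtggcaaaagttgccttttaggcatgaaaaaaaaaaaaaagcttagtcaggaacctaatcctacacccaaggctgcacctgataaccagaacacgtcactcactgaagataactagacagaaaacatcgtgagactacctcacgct

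A stretch of 60 bases is added for Isg15 and Ifit1, chosen after the search because they held further arrangements of the same letters: 3 overlapping matches in Isg15 and 2 separate ones in Ifit1.
Isg15, chr4:156200859-156200918, minus strand: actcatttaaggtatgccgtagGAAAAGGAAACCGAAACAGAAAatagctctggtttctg
Ifit1, chr19:34640774-34640833, plus strand: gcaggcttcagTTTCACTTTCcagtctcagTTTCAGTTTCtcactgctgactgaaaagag

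The day difference described next was read in members with and without a match. The 14 measured members with the core had a median log2 difference of 0.60 between day 12 and day 9, and 12 were higher at day 12. The 15 with a window but no core had a median of 0.54, with 14 higher. The 9 members without a window are in neither group. Their differences ran from -0.05 (Dhx58) to 2.48 (Ifi27), with Mx1, Oas2, Usp18, Rtp4 and Mx2 at 1.48 to 1.76. Both medians therefore lie below that of all 38 measured members, 0.82.

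Interferon response genes were higher at day 12 than at day 9. Of the 38 measured, 34 were higher by the limma estimate over all vectors, with a median log2 difference of 0.82 (1.77-fold), whereas 50.4% of all genes were higher and their median was 0.0023. On the 35 measured on all 6 arrays, 31 were higher and the median was also 0.82. Every day 12 array lay above every day 9 array for 22 of the 38 (21 of the 35), against 8.93% of all genes, and no member had all day 12 arrays below all day 9 arrays, against 8.17%. At an unadjusted p under 0.05, 22 were higher (20 of the 35) and 0 lower, where 7.25% of all genes were higher and 4.8% lower. With normexp background correction, which lowered the median of all genes to -0.12, 28 of the 38 were higher and their median was 0.36. With Benjamini-Hochberg adjustment over all genes, only Ifi27 passed (limma, adjusted p = 0.040), where 0.148% of all genes passed. Samples with the same vector deviated together across the days, and in a fit that blocks on the vector (the replicate block) 4 of the 35 rose: Ifi27, Oas2, Usp18 and Psmb9, where 1.43% of all genes did. Ifi44 also passed there, but it is not counted because every day 9 array was below background. The adjusted p of Ifi27 went past 0.05 under 3 of the alternatives with all arrays (0.058 to 0.087), and when any single array other than day 9 hairpin 1 was left out (0.063 to 0.264). Without day 9 hairpin 1, 5 members passed, among 19 genes in all.

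**Figure D1:**
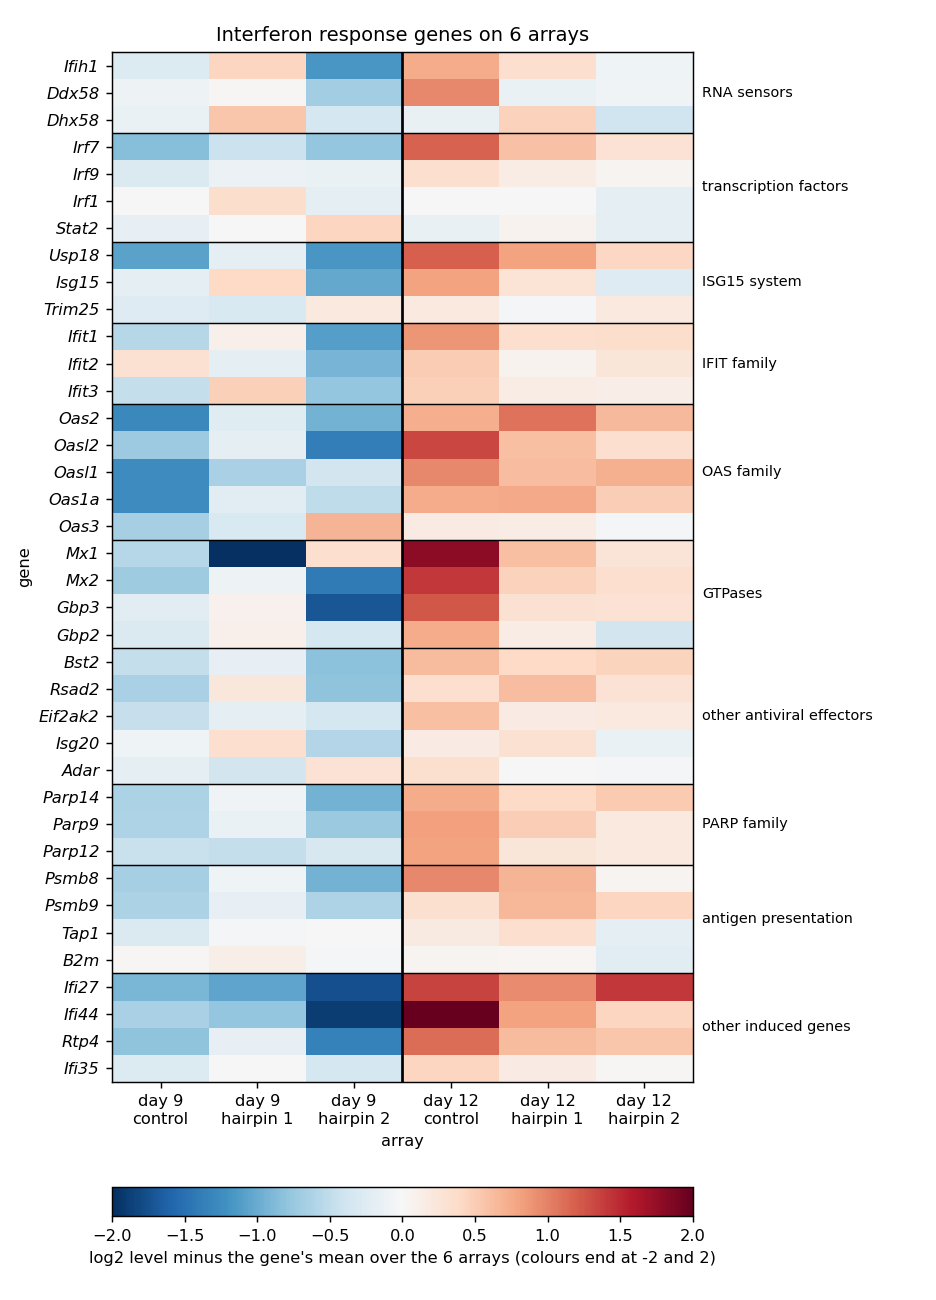
Log2 level of 38 interferon response genes on 6 arrays, each gene (row) centred on its own mean and grouped by role, with columns for day 9 (left of the black line) and day 12. Colours run from -2 (blue) to 2 (red): for 26 of the 38 the highest value is on the day 12 control array, and for 21 the lowest is on day 9 hairpin 2.

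**Figure D2:**
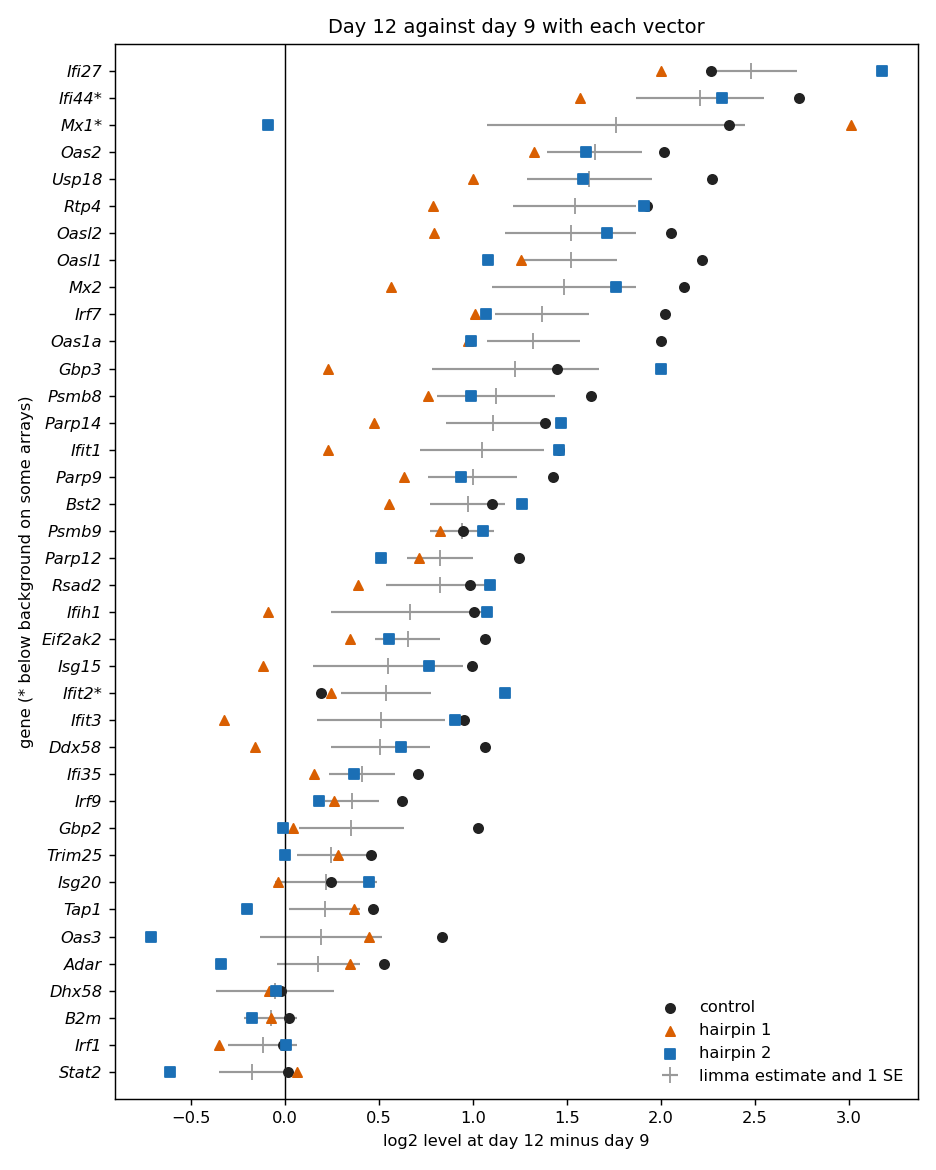
Log2 level at day 12 minus day 9 for each of the 38 genes (rows), for control (circles), hairpin 1 (triangles) and hairpin 2 (squares), with the limma estimate and 1 SE in grey. Points to the right of 0 are higher at day 12; 24 of the 38 are there with all 3 vectors, and an asterisk marks Ifi44, Mx1 and Ifit2, which were below background on some arrays.

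The largest day difference was that of Ifi27, a small hydrophobic protein that type I interferon induces. Its level was 795 in control cells, 718 with hairpin 1 and 442 with hairpin 2 at day 9, and 3829, 2876 and 4003 in the same order at day 12. The days did not overlap, and hairpin 2 was the lowest array of day 9 and the highest of day 12. Ifi27 rose by 2.48 ± 0.24 (SE) on the log2 scale, from a mean level of 652 ± 185 (SD, n = 3) to 3569 ± 607 (SD, n = 3), which was 4.82-fold in control cells, 4.01-fold with hairpin 1 and 9.05-fold with hairpin 2. The dimmer, uncertain probe gave 1.53.

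The other members outside a family were Ifi44, Rtp4 and Ifi35. Ifi44, an interferon-induced protein with antiviral activity, was not well above background on any day 9 array (levels of 0.822, 0.753 and 0.345 for control, hairpin 1 and hairpin 2) and had levels of 5.47, 2.23 and 1.73 at day 12. It was at least 3.35-fold higher at day 12 over all vectors and at least 6.36-fold higher in control cells, counted against the dimmest signal that was well above background. Its fitted estimate rests on day 9 signals below background and turned to -0.10 with normexp. Rtp4, a chaperone of membrane receptors that interferon induces, had levels of 264, 413 and 181 at day 9 and 1003, 714 and 679.7 at day 12. Its days did not overlap, with a log2 difference of 1.54 ± 0.33 (adjusted p = 0.145). Ifi35, a partner of the STAT-binding protein NMI, was at 61.3 to 79.0 at day 9 and 79.1 to 106 at day 12, a log2 difference of 0.41.

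The oligoadenylate synthetases make the short adenylate chains that switch on RNase L, and their OASL relatives act in other ways. All 5 that were measured were higher at day 12 (Oas3 turned to -0.02 with normexp), 4 of them at an unadjusted p under 0.05, with a median log2 difference of 1.52. Oas2 had levels of 22.4, 46.3 and 28.4 at day 9 (control, hairpin 1, hairpin 2) and 90.9, 116 and 86.2 at day 12. The control array was the lowest of day 9 and the days did not overlap: the log2 difference was 1.65 ± 0.25 (limma, adjusted p = 0.099; 0.018 with the replicate block). Oasl1, which represses Irf7 translation, went from 21.0, 32.2 and 39.0 to 97.7, 76.9 and 82.6. Its control array was the lowest at day 9 and the highest at day 12, so that the control difference was 4.66-fold and those with hairpin 1 and hairpin 2 were 2.39-fold and 2.12-fold. Over all vectors its log2 difference was 1.52 ± 0.25 (adjusted p = 0.101).

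Oas1a also had its lowest day 9 value in control cells, with levels of 77.9, 160.1 and 132, but at day 12 the control, at 311, lay beside hairpin 1 at 314 and above hairpin 2 at 262. Its log2 difference between days was 1.32 ± 0.25 (adjusted p = 0.119). Oasl2, a ubiquitin-like antiviral protein, had levels of 104, 151 and 66.0 at day 9 and 433, 261 and 217 at day 12. Here hairpin 2 was the lowest on both days, and the log2 difference was 1.52 ± 0.35 (adjusted p = 0.17). Oas3 was the exception of the family. Its levels of 8.55, 11.0 and 21.8 at day 9 overlapped those of 15.3, 15.0 and 13.3 at day 12, since day 9 hairpin 2 was the highest of all 6 arrays. Its log2 difference was 0.19 ± 0.32 on the brightest probe and 0.90 on the other.

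Usp18 removes ISG15 from proteins and shuts off signalling at the interferon receptor. It had levels of 68.5, 126 and 64.3 at day 9 and 331, 253 and 193 at day 12. The days did not overlap, and the control array was the highest of day 12. The log2 difference was 1.62 ± 0.33 (limma, adjusted p = 0.139; 0.048 with the replicate block), at 4.84-fold in control cells, 2.0-fold with hairpin 1 and 3.0-fold with hairpin 2. Isg15, the ubiquitin-like modifier itself, did not follow it as closely. Its levels of 53.7, 80.8 and 30.2 at day 9 and 107, 74.5 and 51.3 at day 12 overlapped, and it was lower at day 12 with hairpin 1 (0.922-fold). Its log2 difference was 0.55 ± 0.40 (adjusted p = 0.659). Trim25, an ISG15 and ubiquitin ligase that activates RIG-I, stood at 1768 to 2493 at day 9 and 2146 to 2514 at day 12.

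**Figure D3:**
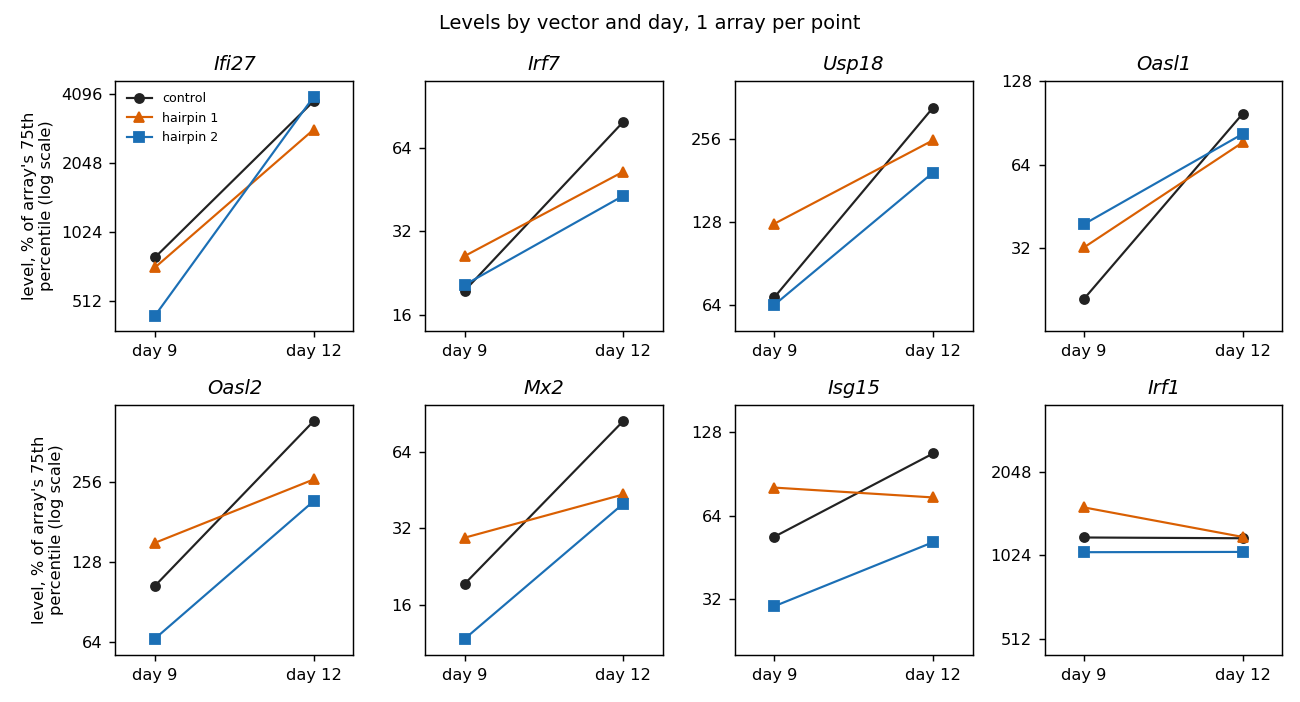
Level (percent of the array's 75th percentile, log scale, with a different range for each gene) of 8 genes at day 9 and day 12, 1 array per point, joined by vector. Ifi27, Irf7, Usp18, Oasl1, Oasl2 and Mx2 were higher at day 12 with all 3 vectors, Isg15 was lower with hairpin 1, and Irf1 lay between 1051 and 1524 throughout.

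Among the transcription factors, the day difference was in Irf7 and Irf9. Irf7, the factor that amplifies interferon production, had levels of 19.6, 26.1 and 20.5 at day 9 and 79.6, 52.6 and 43.0 at day 12. The days did not overlap; the difference was 4.07-fold in control cells, 2.02-fold with hairpin 1 and 2.10-fold with hairpin 2, or 1.37 ± 0.25 in log2 over all vectors (limma, adjusted p = 0.113). Irf9, the DNA-binding part of the STAT complex, was at 89.5 to 101 at day 9 and 114 to 138 at day 12, a log2 difference of 0.36 (limma, unadjusted p = 0.048; 0.058 with the replicate block). The other subunit on the list, Stat2, was at 207 to 309.7 at day 9 and 203 to 242 at day 12 (log2 difference -0.18). Irf1, which is also induced by interferon gamma, was at 1051 to 1524 and 1053 to 1193 (log2 difference -0.12).

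The 3 cytoplasmic sensors of viral RNA had a median log2 difference of 0.51, and none reached an unadjusted p under 0.05 without the replicate block; Ifih1 did with it (limma, unadjusted p = 0.042). Ifih1 (MDA5) had levels of 10.2, 16.6 and 5.51 at day 9 and 20.6, 15.6 and 11.6 at day 12. The spread over the vectors at day 9 was wider than the step between the days (log2 difference 0.66 ± 0.42, adjusted p = 0.604). Ddx58 (RIG-I) had levels of 31.3, 34.3 and 20.8 at day 9 and 65.6, 30.7 and 31.9 at day 12, so that the day 12 control array stood alone above the other 5. Dhx58 (LGP2), which regulates the other sensors, was at 14.2 to 26.4 and 13.7 to 24.8, a log2 difference of -0.05.

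The GTPases of the Mx and guanylate-binding families act on incoming virus particles and on pathogen vacuoles. All 4 were higher at day 12 by the estimate (Mx1 turned to -0.11 with normexp), 3 at an unadjusted p under 0.05, with a median log2 difference of 1.35. Mx2, the cytoplasmic mouse Mx protein, had levels of 19.4, 29.4 and 11.8 at day 9 and 84.6, 43.5 and 40.0 at day 12. The days did not overlap and the day 12 control was above both hairpin arrays, at 4.36-fold over its day 9 value (log2 difference over all vectors 1.48 ± 0.38, adjusted p = 0.218). Gbp3 had levels of 27.8, 33.8 and 9.77 and then 75.9, 39.7 and 39.1; day 9 hairpin 2 was the lowest by far, and the log2 difference was 1.23 ± 0.44 (adjusted p = 0.36). Gbp2 had levels of 32.1, 41.9 and 30.7 at day 9 and 65.4, 43.2 and 30.5 at day 12, so that the days overlapped through hairpin 2, which was level between them.

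Mx1, the nuclear mouse Mx protein, whose gene is damaged in many inbred strains, was close to background. It was not well above background on day 9 control and day 9 hairpin 1 (0.655 and 0.184), stood at 1.24 on day 9 hairpin 2, and had levels of 3.37, 1.49 and 1.16 at day 12. In control cells it was at least 3.92-fold higher at day 12. Hairpin 2 was nearly level between the days (0.94-fold), and the estimate of 1.76 ± 0.69 (adjusted p = 0.391) rests on signals below background.

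The IFIT proteins bind foreign RNA ends and stop their translation. They were dim, and their median log2 difference was 0.54; with normexp all 3 turned below 0 (-0.06 for Ifit1, -0.29 for Ifit2 and -0.04 for Ifit3). Ifit1 had levels of 1.92, 3.06 and 1.33 at day 9 and 5.29, 3.59 and 3.66 at day 12, without overlap (log2 difference 1.05 ± 0.33, adjusted p = 0.295). Ifit3 was at 4.84 to 11.4 and then 9.06 to 11.5, and Ifit2 at 0.893 to 2.11 and then 1.78 to 2.41, both with overlap.

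Of the other antiviral effectors measured, 5 of 5 were higher and 3 of them at an unadjusted p under 0.05. Bst2 (tetherin), which holds budding virions at the cell surface, had levels of 4118, 5122 and 3231 at day 9 and 8829, 7504 and 7755 at day 12. The days did not overlap and the 3 day 12 arrays lay close together, with a log2 difference of 0.97 ± 0.20 (limma, adjusted p = 0.14). Eif2ak2 (PKR), the kinase that stops translation on double-stranded RNA, was at 30.0 to 36.6 and then 46.4 to 62.9, and Rsad2 (viperin), which makes a chain-terminating nucleotide, at 19.4 to 39.8 and then 41.4 to 52.1. Neither overlapped between days. The nuclease Isg20 (54.4 to 103 and 74.3 to 100.4) and the RNA editor Adar (154 to 243 and 192 to 247) overlapped.

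The PARP enzymes, which attach ADP-ribose, were higher at day 12 in all 3 cases. Parp9, Parp12 and Parp14 all had an unadjusted p under 0.05 and no overlap, and their log2 differences were 1.0, 0.82 and 1.11. Parp14, a modifier of STAT signalling, had levels of 65.2, 96.3 and 52.5 at day 9 and 170.0, 134 and 145 at day 12.

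Antigen presentation was split. Psmb8 and Psmb9, the inducible catalytic subunits of the immunoproteasome, were higher at day 12, while Tap1, the peptide transporter, and B2m, the light chain of MHC class I, overlapped. Psmb8 had levels of 14.8, 22.3 and 12.3 at day 9 and 45.6, 37.7 and 24.3 at day 12, a log2 difference of 1.12 ± 0.31 (adjusted p = 0.247). Psmb9 had levels of 77.7, 108 and 78.6 and then 150.0, 191 and 163, a log2 difference of 0.94 ± 0.17 (limma, adjusted p = 0.113; 0.040 with the replicate block). B2m moved by -0.08 and Tap1 by 0.21, and the 3 probes of B2m did not share a sign. In the 11 other members with at least 2 probes on all 6 arrays, the probes shared one.

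Several members lie side by side in the genome. In the gene order of GRCm38.p6, 16 of the 41 fell into 6 groups no more than 5 genes apart: Parp14 with Parp9, Psmb9 with Tap1 and Psmb8, the 3 Ifit genes, Gbp3 with Gbp2, Oasl2 with Oasl1, and Oas2, Oas3, Oas1g and Oas1a. Neighbours did not always move alike. Oas2 and Oas1a differed by 1.65 and 1.32 between days. Oas3, between them, differed by 0.19 on its brightest probe and 0.90 on the other. Tap1 differed by 0.21 between Psmb9 at 0.94 and Psmb8 at 1.12.

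Each vector was then read alone. In control cells 36 of the 38 (33 of the 35) were higher at day 12, against 47.4% of all genes, with a median log2 difference of 1.07; 19 (18 of the 35) were higher at an unadjusted p under 0.05, against 2.83%, and 0 lower, against 1.39%. That count was 29 without either day 9 hairpin array and 15 without either day 12 one. With hairpin 1, 30 were higher, against 48.0% of all genes, with a median of 0.38. With hairpin 2, 30 were higher, against 55.5% of all genes, with a median of 0.96. For the knockdown cells together, 33 were higher (30 of the 35), against 52.4% of all genes, with a median of 0.72; 15 (14 of the 35) were higher at an unadjusted p under 0.05, against 5.62%, and 0 lower, against 2.45%. That count was 25 without day 9 hairpin 1 and 4 without day 12 hairpin 1. The median moved to 1.06 without day 9 hairpin 1 and to 0.36 without day 9 hairpin 2, and with normexp it was 0.19, with 24 members higher. The step in control cells was larger than with either hairpin for 26 of the 38 (25 of the 35), against 29.7% of all genes. More than 2-fold steps were seen in 22 members in control cells, 7 with hairpin 1 and 17 with hairpin 2. The share of all genes with such steps was not counted by vector, so these counts cannot be compared with it. By the estimate over all vectors, 15 members were more than 2-fold higher, Ifi44 and Mx1 among them, against 2.5% of all genes. No member passed adjustment over all genes in either comparison (limma), and the test of the difference between control and knockdown cells is given with the knockdown effects.

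Over both days together, no member was called between knockdown and control cells. Of the 38, 27 were lower (24 of the 35) and 11 higher, with a median log2 difference of -0.11, where 49.6% of all genes were higher. The direction turned with the day 12 control array left out, to 26 higher and 12 lower with a median of 0.14; without the day 9 control it was -0.35, with 5 higher, and without day 9 hairpin 1 it was -0.29. The only member at an unadjusted p under 0.05 was Ifi44, which was lower, against 4.86% of all genes, and no gene passed adjustment (limma, adjusted p = 0.434 for Ifi44). The count of lower members at that unadjusted p was 10 without day 9 hairpin 1, 4 without the day 9 control, 2 without day 9 hairpin 2, and 0 or 1 without any day 12 array. With the replicate block no member passed either, where 0.0495% of all genes were higher and 0.0495% lower. Ifi44 is dim, and its lower value counts only for day 12, where it stood at 40.8% and 31.6% of control; with normexp its estimate over both days turned to 0.072. Next to it in size were Mx1 (-0.91 ± 0.73), Gbp3 (-0.78 ± 0.47) and, on its brightest probe, Ddx58 (-0.65 ± 0.28). Dimmer Ddx58 probes differed from it at day 9, as given below. Below the control of the same day on all 4 knockdown arrays were only Ifi44 and Ifit2, both below background on some of them, against 17.1% of all genes, and only Psmb9 was above on all 4, against 16.2%.

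By sign, the knockdown effect ran one way at day 9 and the other way at day 12. At day 9, 26 of the 38 were higher in knockdown cells (median 0.14) and at day 12, 33 were lower (30 of the 35, median -0.35), where 47.2% and 51.4% of all genes were higher. At an unadjusted p under 0.05, 2 members were higher at day 9 (Oas1a and Oasl1), against 1.93% of all genes, and 4 were lower at day 12 (Ddx58, Irf7, Parp12 and Ifi44), against 2.17%. The day 12 count was 0 without day 12 hairpin 2, 2 without day 12 hairpin 1 and 11 without either day 9 hairpin array, and the day 9 count ran from 1 to 10. No member was higher at day 12 at that p, against 2.91%, and with all arrays none was lower at day 9, against 2.39%. Some were lower at day 9 without day 9 hairpin 1, where 24 of the 38 were lower by sign. The knockdown effect was more negative at day 12 than at day 9 for 36 of the 38, with a median difference of -0.57, whereas it was more positive for 54.8% of all genes. This difference between the days had an unadjusted p under 0.05 for Oasl1 (-1.05 ± 0.35) and Oas1a (-1.02 ± 0.37), against 0.826% of all genes, and no gene passed adjustment (limma, adjusted p of at least 0.999 for each member). The count of 2 became 17 without day 9 hairpin 2, 6 without day 9 hairpin 1 and 0 without either day 12 hairpin array.

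The pattern at day 9 rested on 1 array. Hairpin 1 was above control for 31 of the 38 at day 9 (median 132% of control), against 48.4% of all genes, and hairpin 2 for 14 (median 90.5%). Without day 9 hairpin 1, the median knockdown difference at day 9 was -0.14, and the difference between the days had a median of -0.24 with 13 members higher. At day 12 the medians of the hairpins lay close together: hairpin 1 was above control for 9 and hairpin 2 for 2, with medians of 78.9% and 77.3% of control. Both hairpins were below control for 28 of the 38 (25 of the 35), against 36% of all genes. The day 12 control array was the highest of all 6 for 26, against 16.3%, and it is the single sample on which that comparison rests.

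**Figure D4:**
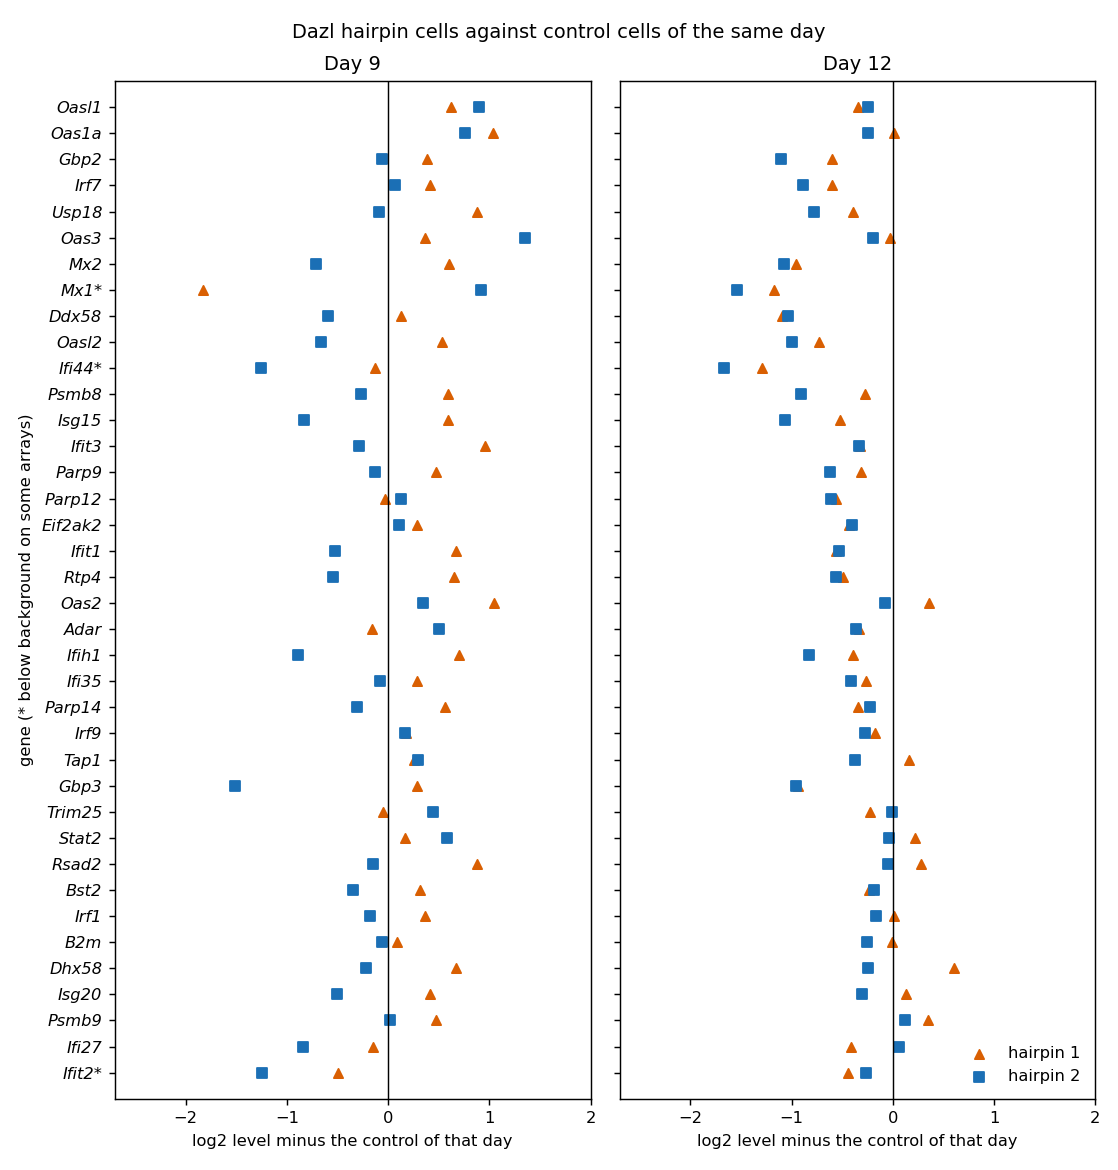
Log2 level in knockdown cells minus the control of the same day for 38 genes (rows), hairpin 1 as triangles and hairpin 2 as squares, at day 9 (left) and day 12 (right), ordered by the difference between the days. At day 9 the triangles are mostly right of 0 and the squares spread to both sides; at day 12 28 of the 38 have both marks left of 0. An asterisk marks genes below background on some arrays.

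In 5 members (Irf7, Irf9, Oas3, Oasl1 and Eif2ak2) both hairpins were above control at day 9 and below it at day 12, against 5.69% of all genes. Irf7 was at 133% and 105% of control with hairpin 1 and hairpin 2 at day 9, and at 66.0% and 54.1% at day 12 (difference between the days -0.98 ± 0.39). Oasl1 was at 153% and 186% and then at 78.7% and 84.5%. Usp18 was at 184% and 93.9% and then at 76.2% and 58.3% (difference -0.98 ± 0.64). The arrays of the pair agreed at day 12 in all 3 genes, and at day 9 in Irf7 and Oasl1.

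Ddx58 was at 46.8% of control with hairpin 1 and 48.6% with hairpin 2 at day 12, and at 109.5% and 66.3% at day 9. Mx2 was at 51.4% and 47.3% at day 12, with 152% and 60.8% at day 9, and Gbp2 at 66.0% and 46.5%, with 131% and 95.6%. Both hairpins were below control at day 12 in these 3, while at day 9 hairpin 1 was above it and hairpin 2 below. For Ddx58 the day 9 part held only on its brightest probe. Of its 3 probes well above background on all 6 arrays, the others had both hairpins above control at day 9. Their log2 knockdown differences were 0.27 and 0.63 at day 9 and -0.34 and -0.83 at day 12. Ddx58 was not the only member whose probes on all 6 arrays differed in the sign of the knockdown difference. At day 12 Rsad2 gave 0.12 on its brightest probe and -0.57 and -0.68 on the others, and Adar gave -0.35 and 0.13. At day 9 Trim25 gave 0.20 on its brightest probe and -0.44 on the other. Oas3 gave the largest day 9 value, 255% of control with hairpin 2, beside 129% with hairpin 1, and was at 98.4% and 87.3% at day 12 (difference -0.97 ± 0.62). Ifi27 was at 90.3% and 55.6% at day 9 and at 75.1% and 105% at day 12, lower at day 12 with hairpin 1 and higher with hairpin 2 (difference 0.32 ± 0.55).

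The hairpins also differed from each other. Hairpin 2 was below hairpin 1 for 31 of the 38 (29 of the 35) by the estimate over both days, where 52.4% of all genes were above it, with a median log2 difference of -0.35, and below it on each day for 23, against 26.7% of all genes. At an unadjusted p under 0.05, 8 were lower with hairpin 2 (7 of the 35), against 5.45% of all genes: Ifih1, Dhx58, Isg15, Oas2, Isg20, Rsad2, Psmb8 and Ifi44. None was higher at that p with all arrays, against 6.21%. Some were without day 12 hairpin 2, where the median was -0.49 and 10 members were higher by sign. With all arrays none passed adjustment, where 0.0692% of all genes did. The largest differences well above background were those of Ifih1 (-1.01 ± 0.31, limma, adjusted p = 0.315) and Isg15 (-0.98 ± 0.29, adjusted p = 0.294), and Mx1 gave 1.19 ± 0.70 near background. Without day 9 hairpin 1 the median was -0.07 and 1 member was lower at that p; without day 12 hairpin 1 the median was -0.67 and 17 were. The count was 3 without day 9 hairpin 2 and 15 without either control array. Adjusted calls, among the members and among all genes, depended on which array was left out.

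Genes upstream of the members were read in the same fit. Of 19 interferon genes, 15 had a probe and 9 were measured; Ifnb1, Ifng, Ifne, Ifna2, Ifna4 and Ifna11 were well above background on no array. The summed level of the 9 was 33 to 36.4 at day 9 and 34.9 to 41.2 at day 12, with a median log2 difference of 0.04. Ifnk, an interferon best known from skin, was the only one at an unadjusted p under 0.05. It was dim, with levels of 0.612, 1.28 and 0.312 at day 9, where only hairpin 1 was well above background, and 3.39, 5.84 and 2.31 at day 12. Its log2 difference was 2.51 ± 0.59 (limma, adjusted p = 0.178, or 0.011 with the replicate block). That test rests partly on day 9 signals below background and is not counted as a call.

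Of the 11 receptor and kinase genes, 8 were higher at day 12 with a median log2 difference of 0.12, 1 of them at an unadjusted p under 0.05 (2 with the replicate block). The type I receptor chains Ifnar1 (93.6 to 123 and 100.3 to 147) and Ifnar2 (235 to 267 and 221 to 269) overlapped between days, as did Jak1 and Tyk2. Among 11 genes of nucleic acid sensing, the median was -0.04; the DNA and RNA sensor Zbp1 was higher (1.19 ± 0.27, adjusted p = 0.172) and the adaptor Mavs lower (-0.40, unadjusted p = 0.045). The 9 other regulators had a median of 0.09 and none at an unadjusted p under 0.05.

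A second list of 46 interferon-induced genes outside the 41 was read in the same way. Of 39 measured, 32 were higher at day 12, against 50.4% of all genes, with a median log2 difference of 0.35. At an unadjusted p under 0.05, 18 were higher, against 7.25% of all genes, and 3 lower, against 4.8%. With the replicate block Ifi204, Herc6 and Trim30a rose, where 1.43% of all genes did. Epsti1 also passed there, but its test rests partly on signals below background. Sp100, a nuclear body protein, had levels of 4.12, 5.08 and 1.76 at day 9 and 14.4, 12.0 and 13.3 at day 12. Trim30a, Tgtp1 and Epsti1 followed in size, with log2 differences of 1.98, 1.76 and 1.53, all of them dim; Trim30a was well above background on 5 arrays and Epsti1 on 3. The 3 lower ones were Ifitm1 (-0.69), Tor3a (-0.46) and Ifi30 (-0.39).

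**Figure D5:**
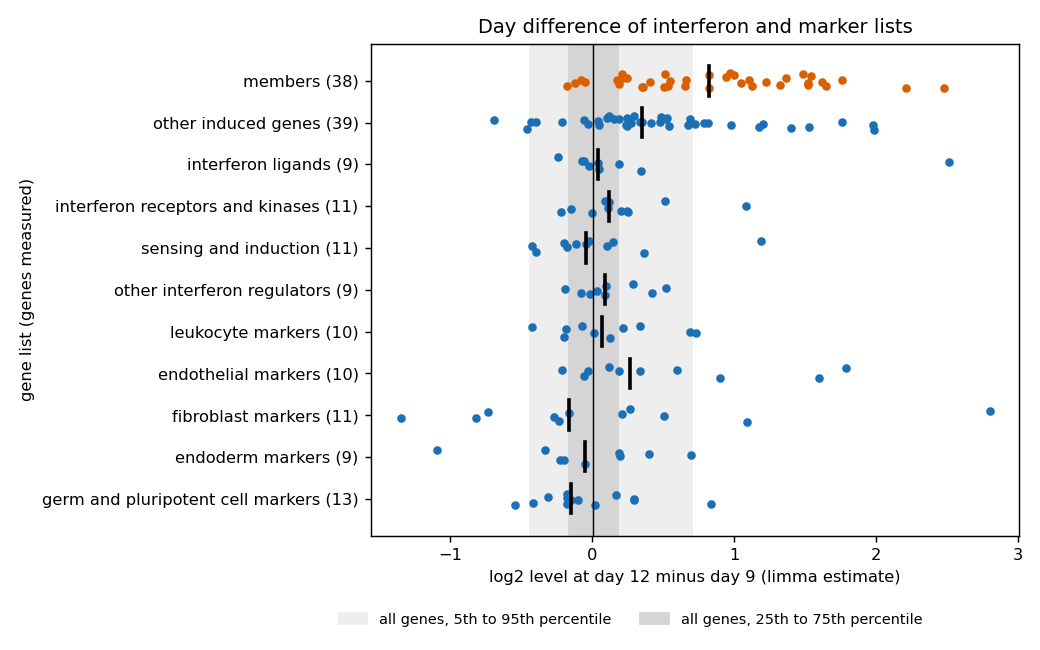
Limma estimate of the log2 difference of day 12 against day 9 (x axis) for each gene of 11 lists (rows, with the number of genes measured), 1 point per gene, with the list's median as a black bar. The grey bands hold the middle of all genes (25th to 75th percentile, -0.16 to 0.18; 5th to 95th, -0.44 to 0.70); the median of the 38 members, 0.82, lies outside both, and the medians of ligands, receptors and sensing genes lie inside the inner band.

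Markers of germ cells and of other cell types were read beside these results. The 13 germ and pluripotent cell markers measured summed to 70628 to 82879 at day 9 and 60317 to 76391 at day 12. Of these markers 5 were higher at day 12 (median log2 difference -0.15). The day 12 control array had the lowest of the 6 sums, at 60317, beside 70630 with hairpin 1 and 76391 with hairpin 2. Of 16 leukocyte markers 10 were measured, and 6 of them were higher at day 12 (median log2 difference 0.067). Ptprc, Adgre1, Itgam, Siglech and Spi1 were well above background on no array, and Aif1 was not measured either. The summed level was 482 to 600.4 at day 9 and 403 to 618 at day 12. The 10 endothelial markers summed to 397 to 632 and 551 to 672 (median log2 difference 0.27), and 3 of them, Cdh5, Cd34 and Tie1, were higher at day 12 at an unadjusted p under 0.05, against 7.25% of all genes. Tie1, an endothelial receptor kinase, had levels of 1.26, 0.997 and 2.10 at day 9 and 4.66, 5.21 and 4.51 at day 12 (log2 difference 1.79 ± 0.29, limma, adjusted p = 0.101; 0.040 with the replicate block). Fibroblast markers summed to 1293 to 1701 at day 9 and 741 to 1699 at day 12. Lum, well above background on 4 arrays (1 of day 9), had a higher estimate at day 12 (2.80 ± 0.45, limma, adjusted p = 0.101, or 0.011 with the replicate block). That test rests partly on day 9 signals below background and is not counted as a call. Col1a2 was lower at day 12 (-1.35 ± 0.36, limma, adjusted p = 0.226). At day 12 the sums stood at 741 in control cells, 1054 with hairpin 1 and 1699 with hairpin 2, and all 11 markers were higher in knockdown cells at day 12 (median 1.1), the opposite order to that of most members. Endoderm markers summed to 147 to 296 and 132 to 314, with 8 of 9 higher in knockdown cells over both days. The part of these cell types in the results was not tested.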

How the data were processed

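Total RNA of 6 samples was hybridised to 1-colour Agilent mouse whole-genome arrays. Per the file headers, the deposited scanner files gave the intensity of each spot as Agilent Feature Extraction 9.1.3.1 wrote it, background-subtracted and not normalized across arrays. Values in the authors' deposited table were a ratio: background-subtracted signal over a constant of its array, with a column median of 1, found by matching all 41529 entries of each column to 1 spot. The deposited quality score served only for that matching.

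On the log2 scale, the 75th percentile of each array was subtracted. The 30190 probes that 2 or more arrays showed well above background were kept, and the brightest probe stood for each of 20220 genes; 6935 genes had several. The number of arrays limits the precision. Tests used limma 3.58.1 (R 4.3.3), two-sided, with Benjamini-Hochberg adjustment over all genes and a threshold of 0.05; the script was tested on simulated data. One fit had day and knockdown, another had 4 groups, and the last had day and vector. In the fit with 4 groups, the lone control of a day is assumed to vary like the knockdown pairs. Pairing by vector comes from the labels: deviations of arrays of the same vector correlated across the days at r of 0.38, 0.54 and 0.26, those of different vectors at -0.34 to -0.02, so the vector was also fitted as a replicate block. Each vector kept its slide position on both days, so these correlations cannot tell vector from position.

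The members and the gene lists were chosen with earlier results of these data known. Values on every array are given for members past the threshold, those with the largest day, knockdown, hairpin or between-day differences, and the largest day difference of each role. Levels of different probes are not compared. Promoter windows and gene order came from RefSeq tables for GRCm38.p6; the build behind the array's annotation is not given in the sources used here. One gene of the wider lists is not reported here.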

Additional observations from a re-analysis of the deposited data

Results flagged for a closer look

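In 5 members both knockdown arrays were above the control at day 9 and both below it at day 12, where 5.69% of all genes had this pattern. The knockdown effect at day 12 minus that at day 9, in log2, was -0.98 for Irf7, -0.40 for Irf9, -0.97 for Oas3, -1.05 for Oasl1 and -0.62 for Eif2ak2. In the limma fit of that difference, Oasl1 had an unadjusted p of 0.028 and the other 4 had unadjusted p-values of 0.052 to 0.254, and the adjusted p was above 0.999 for each. Each effect is set against 1 control array per day.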

How the results depend on the processing

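The members' median difference between days kept its sign under every alternative run. It was 0.82 and moved to 0.36 with normexp background correction, which also shifted the median of all genes to -0.12; in knockdown cells alone the members' median moved from 0.72 to 0.19 (all genes -0.15). Normexp turned the day difference of 6 members below 0 (Oas3 and the 3 Ifit genes, as given in the report, and 2 more): day 12 against day 9 became -0.10 for Ifi44 and -0.11 for Mx1, and knockdown against control 0.072 and 0.12. With an array left out, the between-day difference of Mx1 ranged from -2.27 to 0.47 and its hairpin difference from -0.19 to 2.58, both changing sign without day 9 hairpin 2. Over the members with the largest differences, each in the comparison that chose it, these 4 of 206 values reversed with all arrays, and these 2 of 152 with an array left out; 15 gained a call and 8 lost one.

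The number of genes past the adjusted threshold moved most. For day 12 against day 9 it was 30, with 1 under normexp, 0 with no filter on dim probes, 328 with the replicate block, and 0 to 19 with an array left out (19 without day 9 hairpin 1, 0 without any other). For the knockdown over both days it was 0, with 2 under normexp, 8 with probes well above background on all 6 arrays, 1 with the mean of probes, 2 with a trended robust prior and 20 with the replicate block. For hairpin 2 against hairpin 1 it was 14, with 119, 52 and 72 under normexp, the stricter filter and the trended prior, 2 with the mean of probes, 1 each with quantile normalization, no filter and the deposited table, and 0 to 829 with an array left out.

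With single arrays left out, the members' median ranged from 0.70 to 1.07 for the days, -0.35 to 0.14 for the knockdown over both days, -0.14 to 0.40 for the knockdown at day 9, -0.37 to -0.34 at day 12, -0.81 to -0.24 for the difference between them, 0.36 to 1.06 for the days in knockdown cells and -0.67 to -0.07 for the hairpins. Comparisons that need the left-out control of a day could not be fitted. The causes of these moves were not tested. No other adjusted call among the members changed with the replicate block than those named in the report; at an unadjusted p under 0.05, Ifih1 and Ifi35 (days) and Ddx58 and Ifit2 (knockdown) came in and Irf9 (days) went out. Signal over background limits Ifi44, Mx1, Ifit2, Ifnk, Epsti1 and Lum.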

Other observations

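Ifi27l2a, a neighbour and relative of Ifi27 that the array also names Ifi27, was not among the 41 genes. Its brighter probe had levels of 39.9, 55.9 and 34.3 at day 9 (control, hairpin 1, hairpin 2) and 161, 112 and 111 at day 12. The days did not overlap, and the log2 difference was 1.57 (limma, adjusted p = 0.099; 0.037 with the replicate block). Its arrays had the order of Usp18 and Mx2, with the day 12 control the highest, and not that of Ifi27, where day 12 hairpin 2 was.

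The immunity-related GTPases, which attack vacuoles that hold parasites and are known as targets of interferon gamma, were on the second list of induced genes. Irgm1 had levels of 37.7, 71.0 and 40.6 at day 9 and 150, 113 and 119 at day 12, a log2 difference of 1.40 ± 0.28 (limma, adjusted p = 0.135). Igtp was at 170 to 265 and then 301 to 477, and Irgm2 at 47.3 to 65.5 and then 81.2 to 132, each without overlap. Ifng itself was well above background on no array.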
